A study of Mus musculus with 4 samples.

Results

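Mitochondria constantly join and divide, and the genes described here encode the machinery for both events. They are Mfn1, Mfn2, Opa1, Oma1, Dnm1l, Fis1, Mff, Mief1 and Mtfr1, chosen by name for this role. Every probe set whose only gene symbol in the array annotation is one of these 9 was taken, which gave 23 of the 45037 probe sets tested. All 9 genes were measured, by 1 to 4 probe sets each, among 18193 genes in all. The hearts came from C57B6 mice aged 3.6 months, sampled at baseline without treatment. The genotypes, with 2 arrays each, were GSK-3alpha S21A, a knock-in in which the kinase GSK-3α has alanine in place of serine 21, and wild-type. Serine 21 is the site at which Akt and related kinases restrain GSK-3α, so the comparison asks what differs in the heart when that restraint is lost. Whether the 2 arrays of a genotype come from different animals is not stated in the labels, so n counts arrays and p-values measure only the spread between them, which may be technical. The labels also give neither zygosity nor sex.

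Fusion joins the outer membranes of 2 mitochondria through the mitofusins Mfn1 and Mfn2, and then the inner membranes through the dynamin-related GTPase Opa1. Opa1 also shapes the cristae, and the protease Oma1 cleaves it when the inner membrane is stressed. Fission is carried out by the dynamin-related GTPase Drp1, encoded by Dnm1l, which is drawn from the cytosol to the mitochondrial surface by adaptors such as Mff, Mief1 (also called MiD51) and Fis1 and constricts the organelle there. Cardiac muscle is packed with mitochondria and depends on both processes for their upkeep.

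The 9 genes are nuclear, and factors known to bind promoters of nuclear genes for mitochondrial proteins include NRF-1, the ETS-type factor GABP and the ERR receptors. The 250 bases before each transcription start in RefSeq (GRCm38.p6) were searched on both strands for CGCANGCG, a core of the NRF-1 site, for CCGGAAG, a core of ETS-type sites, and for TCAAGGTCA, the ERR element. RefSeq starts were matched for 8 members, with 13 starts, and those holding a match are shown so that the members can be told apart by promoter, with the motif in capitals. The sequences are given on the strand of the gene, 5′ to 3′.
Opa1, NRF-1 motif, chr16:29579252-29579307, plus strand: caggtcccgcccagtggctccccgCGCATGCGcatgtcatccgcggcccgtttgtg
Oma1, NRF-1 motif on the opposite strand, chr4:103313800-103313845, plus strand: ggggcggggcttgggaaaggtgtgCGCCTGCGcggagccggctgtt
Mfn1, ETS motif, chr3:32529414-32529468, plus strand: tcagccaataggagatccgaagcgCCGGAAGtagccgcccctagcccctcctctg
Fis1, ETS motif, chr5:136953233-136953274, plus strand: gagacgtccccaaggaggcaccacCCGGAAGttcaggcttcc
Mief1, ETS motif, chr15:80233991-80234045, plus strand: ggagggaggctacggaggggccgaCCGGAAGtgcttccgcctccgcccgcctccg
The NRF-1 letters thus stood before 2 members, against 7.65% of all 27025 genes with a promoter entry, and the ETS letters before 3, against 7.83%. The ERR letters stood before 0 of the 8, against 0.42% of all genes. A gene was counted if any of its starts held a match. The 8 members had 13 starts and all 27025 genes had 32851, so members had more starts per gene. None of these motifs stood before Mfn2, Dnm1l or Mff, and no start was matched for Mtfr1. Matches to the different motifs did not overlap, and the Opa1 match reads the same motif on both strands and was counted once. Among the genes of the factors themselves, on the log2 scale, Gabpb1 differed by 0.23, Nrf1 by −0.10, Esrra by −0.02 and Esrrg by 0.05. Gabpa differed by 0.30, but this rested on wild-type replicate 1 and was −0.06 without it. None of these passed the test described next, and Esrrb is given with the biogenesis genes.

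All values are log2 RMA values, and all differences are knock-in minus wild-type on that scale. They were fitted with limma over all probe sets, and the adjusted p is Benjamini-Hochberg over all 45037. No fission or fusion probe set passed an adjusted p of 0.05 in either direction, where 3 of all probe sets did (0.00666%), and the smallest adjusted p among the 23 was 0.458. At an unadjusted p under 0.05, 2 of the 23 were higher in knock-in hearts, 1 of Opa1 and 1 of Dnm1l, and 0 were lower. The background at that p was 5.07% of all probe sets higher and 5.62% lower. The members' count at that p depended on the arrays and the scaling: without knock-in replicate 1 it was 0 higher and 1 lower, and it was 1 higher after quantile normalization and after cyclic loess. With arrays shifted to 1 median, 3 of the 23 were higher at that p. By the brightest probe set of each gene the differences lay between 0.06 for Oma1 and 0.32 for Dnm1l, at most 1.25-fold, with a median of 0.14. All 9 were above 0 as deposited, but Oma1 turned below 0 after quantile normalization and after cyclic loess, and Mtfr1 after quantile normalization. The knock-in and wild-type values did not overlap, with knock-in above, for 11 of the 23 probe sets, and with knock-in below for 0. Over all probe sets these shares were 18.5% and 26.7%.

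**Figure D1:**
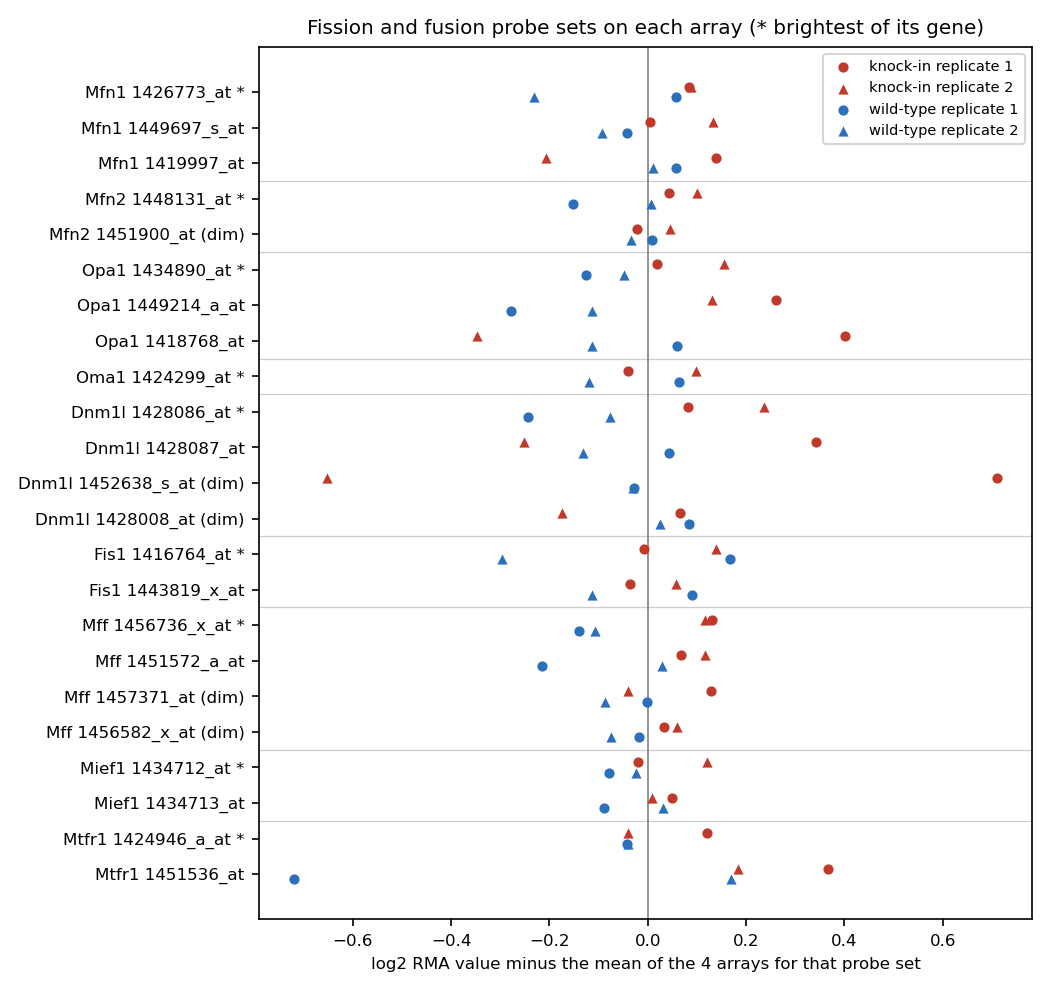
Log2 RMA value of each of the 23 probe sets on each of the 4 arrays, as the distance from that probe set's mean over the arrays (x axis), with knock-in in red above wild-type in blue, and dim probe sets marked. The groups separate, with knock-in above, in 11 probe sets, and knock-in replicate 2 lies far below knock-in replicate 1 for 1 Opa1, 1 Mfn1 and 2 Dnm1l probe sets.

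Among the fusion genes, the mitofusin Mfn1, a GTPase of the outer membrane that tethers neighbouring mitochondria, had 11.63 and 11.63 in knock-in hearts, against 11.60 and 11.31 in wild-type hearts by its brightest probe set (1426773_at). The knock-in values lay above both wild-type values, but by only a few hundredths above the first of them. The difference was 0.17 ± 0.13 (SE; limma adjusted p = 0.600), and it was 0.03 without wild-type replicate 2 and 0.32 without wild-type replicate 1. A second bright Mfn1 probe set (1449697_s_at) differed by 0.14, with 11.53 and 11.66 in knock-in and 11.49 and 11.44 in wild-type hearts, and ran from 0.07 to 0.20 with 1 array left out. The third (1419997_at) overlapped between the genotypes and differed by −0.07, with 95% limits of −0.41 and 0.27, or by 0.10 without knock-in replicate 2.

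Mfn2, the other mitofusin, which also links mitochondria to the endoplasmic reticulum, had 12.55 and 12.61 in knock-in hearts, against 12.35 and 12.51 in wild-type hearts (1448131_at). The groups did not overlap, and the gap between the nearest knock-in and wild-type values was smaller than the gap between the wild-type arrays. The difference was 0.14 ± 0.11 (SE), with 95% limits of −0.13 and 0.41 (limma adjusted p = 0.614). It was 0.06 without wild-type replicate 1 and 0.22 without wild-type replicate 2. The other Mfn2 probe set (1451900_at) was dim, meaning a mean below the median of all probe sets, which was 6.18. It ran between 4.40 and 4.48 on the 4 arrays and bears little on Mfn2.

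Opa1 showed the smallest p of all 23 probe sets, but its 3 probe sets differed among themselves. The one with that p (1449214_a_at) had 8.85 and 8.72 in knock-in hearts, against 8.31 and 8.48 in wild-type hearts. Both knock-in values were above both wild-type values, and the difference was 0.39 ± 0.12 (SE), with 95% limits of 0.11 and 0.68 (limma adjusted p = 0.458). It lay between 0.31 and 0.47 with each array left out in turn. The brightest Opa1 probe set (1434890_at) had 11.83 and 11.96 in knock-in hearts, against 11.68 and 11.76 in wild-type hearts, again without overlap. It differed by 0.17 (limma adjusted p = 0.556), or by 0.11 without knock-in replicate 2. The remaining one (1418768_at) had 8.74 and 7.99 in knock-in hearts, against 8.40 and 8.22 in wild-type hearts, so that the wild-type values lay inside the knock-in range. It differed by 0.05, but by −0.32 without knock-in replicate 1 and 0.43 without knock-in replicate 2. Whether the Opa1 probe sets differ from one another in their response was not tested. Oma1, the protease that cleaves Opa1, is measured by a single probe set (1424299_at) and had 10.28 and 10.42 in knock-in hearts, against 10.38 and 10.20 in wild-type hearts. Its groups overlapped, and its difference of 0.06 (95% interval −0.23 to 0.35) turned to −0.04 without wild-type replicate 2 and to −0.01 without knock-in replicate 2.

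Among the fission genes, Dnm1l, which encodes the constricting GTPase Drp1, had the largest difference by a brightest probe set. That probe set (1428086_at) had 10.67 and 10.82 in knock-in hearts, against 10.34 and 10.51 in wild-type hearts. The groups did not overlap, and the difference was 0.32 ± 0.12 (SE), with 95% limits of 0.03 and 0.61 (limma adjusted p = 0.458). It stayed between 0.23 and 0.40 with any 1 array left out. A second Dnm1l probe set at a similar level (1428087_at) had 10.63 and 10.03 in knock-in hearts, against 10.33 and 10.15 in wild-type hearts. Here the knock-in arrays lay on either side of the wild-type arrays, and the difference was 0.09 (adjusted p = 0.875), or −0.21 without knock-in replicate 1 and 0.39 without knock-in replicate 2. The other 2 Dnm1l probe sets were dim. One of them (1452638_s_at) had the widest knock-in spread of all the members, with 6.49 and 5.13 in knock-in hearts, against 5.75 and 5.75 in wild-type hearts. It differed by 0.06, but by −0.62 without knock-in replicate 1 and 0.74 without knock-in replicate 2. The other dim one (1428008_at), with a mean of 3.30, overlapped between the genotypes and differed by −0.11. The mean of all 4 Dnm1l probe sets differed by 0.09.

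The knock-in arrays thus disagreed for several probe sets of the GTPase genes. A gap of more than 0.3 between knock-in replicates, a size chosen after the values were seen, was found for 4 of the 23 probe sets: 2 of Dnm1l, 1 of Opa1 and 1 of Mfn1. In all 4, replicate 2 was the lower one. Over all probe sets 11% had such a gap and 5.68% had it with replicate 2 lower. Between wild-type replicates the same gap was found for 2 of the 23, against 18.6% of all probe sets. The log2 signal of the 3′ Gapdh control probe set exceeded that of the 5′ one, a measure that grows as RNA degrades, by 0.54 and 0.76 on knock-in replicates 1 and 2, against 0.62 and 0.61 on the wild-type arrays. Its part in these gaps was not tested.

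Mff, the main outer membrane receptor for Drp1 in mammalian cells, was higher in knock-in hearts by both of its bright probe sets, though neither passed the test. The brightest (1456736_x_at) had 11.74 and 11.72 in knock-in hearts, against 11.47 and 11.50 in wild-type hearts. The replicates of each genotype lay within a few hundredths of each other and far from the other genotype, and the difference was 0.25 ± 0.10 (SE), with 95% limits of 0.00 and 0.50 (limma adjusted p = 0.467). It stayed between 0.23 and 0.26 with any 1 array left out. The x in the probe set's name marks probes that may bind other transcripts. The second bright Mff probe set (1451572_a_at), designed to bind alternative transcripts of Mff, had 10.68 and 10.73 in knock-in hearts, against 10.39 and 10.64 in wild-type hearts. It differed by 0.18 without overlap, by 0.06 without wild-type replicate 1 and by 0.31 without wild-type replicate 2. The 2 dim Mff probe sets each differed by 0.09.

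**Figure D2:**
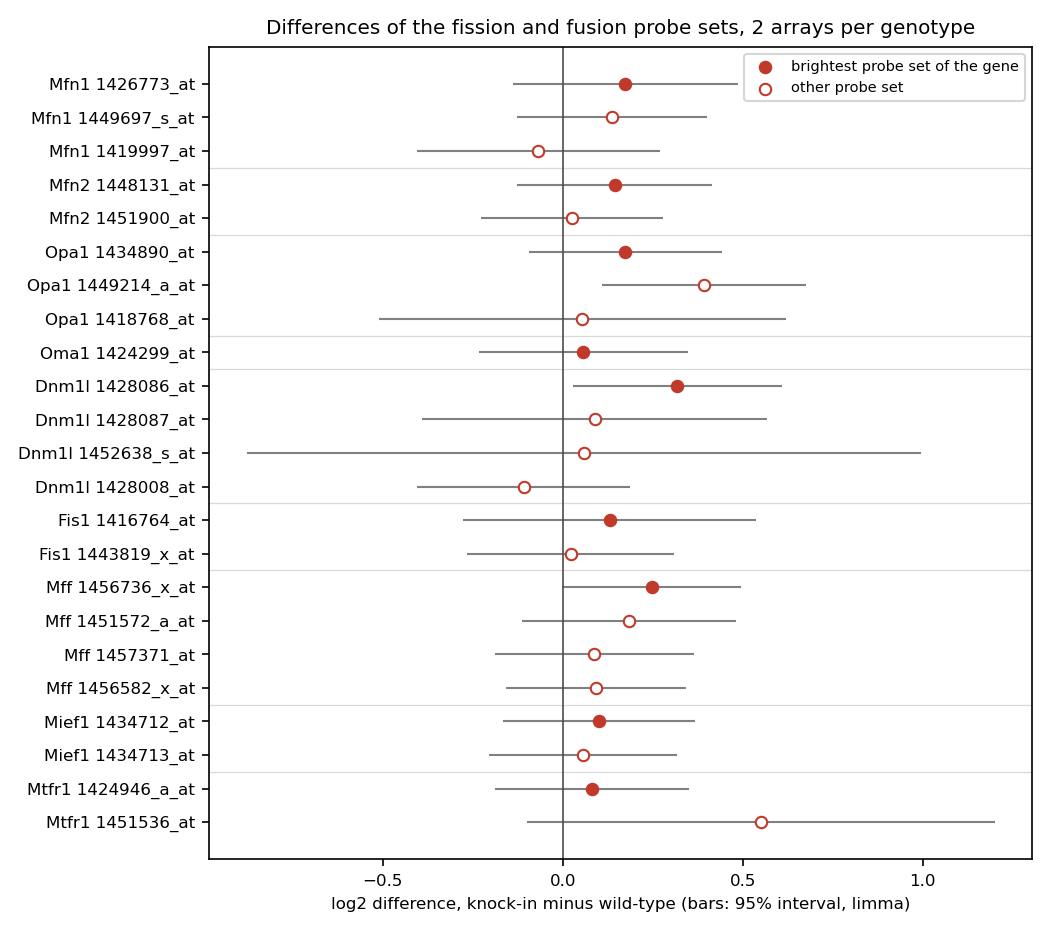
Log2 difference, knock-in minus wild-type, of each of the 23 probe sets (points, filled for the brightest probe set of each gene), with 95% intervals from limma (bars), for 2 arrays per genotype. The intervals lie wholly above 0 for 1 Opa1 and 1 Dnm1l probe set and include 0 for the others, and within Mfn1 and Dnm1l the probe sets lie on both sides of 0.

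The remaining Drp1 adaptors were Fis1 and Mief1. Fis1, a small outer membrane protein that acts in fission in yeast, had 10.54 and 10.69 in knock-in hearts, against 10.72 and 10.25 in wild-type hearts (1416764_at). The knock-in values lay inside the wild-type range, and the difference of 0.13 (95% interval −0.28 to 0.54) became −0.10 without wild-type replicate 2 and 0.36 without wild-type replicate 1. Its other probe set (1443819_x_at) differed by 0.02, and by −0.06 and −0.03 after quantile normalization and cyclic loess. Mief1, which binds Drp1 at the outer membrane, had 8.97 and 9.11 in knock-in hearts, against 8.91 and 8.97 in wild-type hearts (1434712_at). The lower knock-in value was almost level with the higher wild-type value, and the difference was 0.10 ± 0.11 (SE; limma adjusted p = 0.718), or 0.03 without knock-in replicate 2 and 0.17 without knock-in replicate 1. The second Mief1 probe set (1434713_at) overlapped between the genotypes and differed by 0.06.

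Mtfr1, named mitochondrial fission regulator 1, had the largest single difference of the 23 probe sets, and that value rested on 1 array. By this probe set (1451536_at) it had 8.85 and 8.67 in knock-in hearts, against 7.76 and 8.65 in wild-type hearts. Wild-type replicate 1 was low, whereas wild-type replicate 2 was almost level with knock-in replicate 2. The difference was 0.55 ± 0.27 (SE), with 95% limits of −0.10 and 1.20 (limma adjusted p = 0.487), and it was 0.11 without wild-type replicate 1. The brightest Mtfr1 probe set (1424946_a_at) had 9.37 and 9.21 in knock-in hearts, against 9.21 and 9.21 in wild-type hearts. Its difference of 0.08 came from knock-in replicate 1, since without that array it was 0.00045.

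The level at which a gene was measured moved with the sign of its difference on these arrays. By brightest probe set 46.9% of all 18193 genes were above 0, with a median of −0.01. Among the 5061 genes at least as bright as Mief1, the dimmest member, 69.6% were above 0, with a median of 0.06. Against that the 9 members were all above 0 with a median of 0.14, and 28.0% of the genes in this bright set differed by at least that median. The genotypes did not overlap, with knock-in above, for 6 of the 9 members, against 22.5% of all genes and 36.6% of the bright ones. Quantile normalization took the bright genes to a median of −0.01 and 47.4% above 0, and the members to a median of 0.10 with 7 of 9 above 0. After cyclic loess the bright genes had a median of −0.01 and the members a median of 0.08, with 8 of 9 above 0. Under both normalizations the members' median was thus lower than as deposited and above that of the bright genes.

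**Figure D3:**
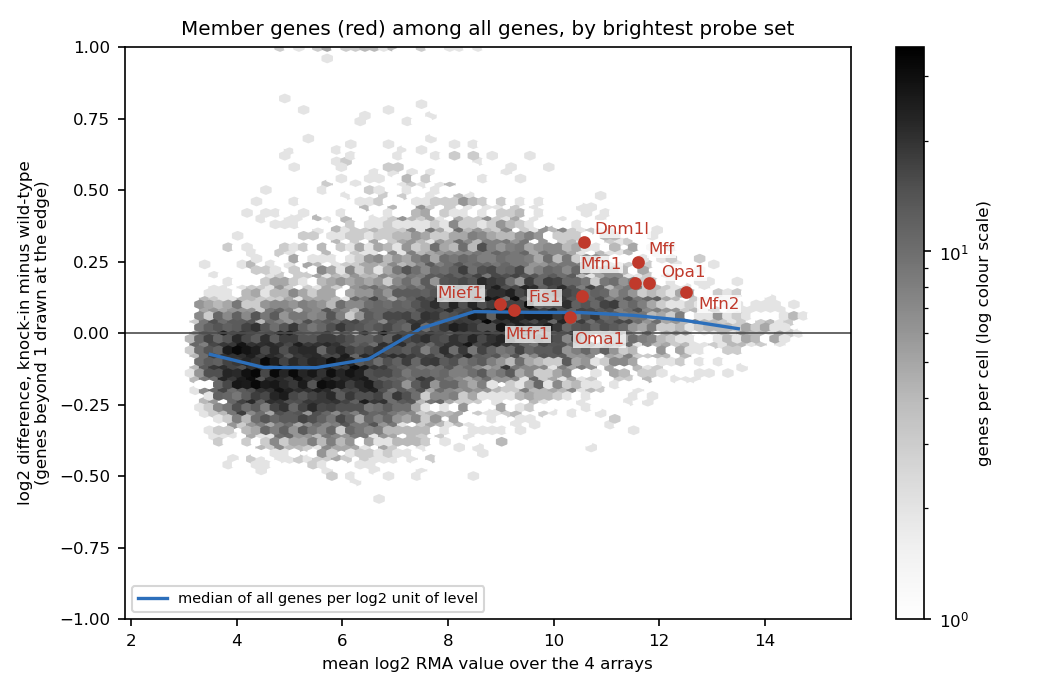
Log2 difference, knock-in minus wild-type, against the mean log2 RMA value over the 4 arrays for all 18193 genes by brightest probe set (grey cells, darker with more genes, log colour scale), with the 9 members in red and the median of all genes per log2 unit in blue. The blue line lies below 0 for dim genes and above 0 where the members lie, and Dnm1l, Mff, Opa1, Mfn1, Mfn2, Fis1 and Mief1 lie above it while Mtfr1 lies almost on it and Oma1 just below it; Oma1 turned below 0 after quantile normalization and cyclic loess, and Mtfr1 after quantile normalization.

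The pattern of Dnm1l over the 4 arrays, the member gene with the smallest p by its brightest probe set, was closest to those of Elf1, Vps4b, Ankrd23, Fosl2 and Dnajc7. Likeness was the root mean square distance between mean-centred log2 values over the 4 arrays, searched over 9865 genes with a mean of at least 7. These distances ran from 0.0083 for Elf1 to 0.018 for Dnajc7, against a median of 0.17 over the genes searched. Elf1 had 7.59 and 7.73 in knock-in hearts, against 7.26 and 7.42 in wild-type hearts. With 4 arrays many genes can lie this close.

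Other genes of the mitochondrial dynamics machinery were read from the same fit, in 7 lists, by the brightest probe set of each gene. No gene of these lists passed an adjusted p of 0.05. Among 17 other regulators of fission, 11 were above 0 and 6 below, with a median of 0.07, and 1 in each direction had an unadjusted p under 0.05, where 5.45% of all genes did so higher and 4.76% lower. Mtfp1, an inner membrane protein that promotes fission, had 11.82 and 11.90 in knock-in hearts, against 11.56 and 11.64 in wild-type hearts, a difference of 0.27 (limma adjusted p = 0.461). The phosphatase subunit gene Ppp2r2b differed by −0.28 and Gdap1, an outer membrane protein mutated in an inherited neuropathy, by −0.24, both from dim probe sets.

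Among 6 outer membrane fusion partners, 4 were above 0 and 2 below, with a median of 0.07. The mitoguardins Miga1 and Miga2, which promote fusion of the outer membrane, pointed opposite ways. Miga1 had 7.54 and 7.42 in knock-in hearts, against 6.78 and 7.31 in wild-type hearts, a difference of 0.44 that was 0.17 without wild-type replicate 1. Miga2 had 11.62 and 11.73 in knock-in hearts, against 11.90 and 11.88 in wild-type hearts, a difference of −0.21. Mtch2, a carrier-like protein of the outer membrane, differed by 0.12. In the list of Opa1 processing and cristae structure, 13 of 17 genes were above 0, with a median of 0.12. Dnajc11, a partner of the cristae-organizing complex, had 9.32 and 9.42 in knock-in hearts, against 9.10 and 9.10 in wild-type hearts, a difference of 0.27, and the proteases Parl and Afg3l2 differed by 0.24 and 0.22, of which Parl was 0.15 without knock-in replicate 2.

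Mitophagy removes fragments that fission has cut off, and 7 of 11 genes of this list were above 0, with a median of 0.12. The mitophagy receptors Bcl2l13 and Fundc1 differed by 0.22 and 0.16, and the adaptor gene Sqstm1 by 0.21. With 1 array left out Fundc1 ran from 0.096 to 0.22 and Sqstm1 from 0.13 to 0.29. Bnip3 and Fkbp8, also in this list, differed by −0.13 and −0.05. Leaving out 1 array, Bnip3 ran from −0.22 to −0.05 and Fkbp8 from −0.16 to 0.07. Pink1, the kinase that marks damaged mitochondria, differed by 0.04, with 12.10 and 12.12 in knock-in hearts, against 12.09 and 12.04 in wild-type hearts. Of 7 genes of mitochondrial transport 6 were above 0, with a median of 0.23. Armcx1, an outer membrane protein that moves mitochondria in neurons, differed by 0.29 and the kinesin gene Kif1b by 0.26, whereas the kinesin gene Kif5b differed by −0.31 with 11.27 and 10.80 in knock-in hearts, against 11.33 and 11.36 in wild-type hearts, and by −0.08 without knock-in replicate 2.

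Further lists held genes of protein import and of biogenesis, the making of new mitochondria. Of 14 genes of outer membrane channels and protein import 12 were above 0, with a median of 0.09, and the import receptor genes Tomm70a, Tomm20 and Tomm22 differed by 0.40, 0.30 and 0.19. Tomm70a had 10.42 and 10.40 in knock-in hearts, against 9.74 and 10.27 in wild-type hearts, so that wild-type replicate 1 was again the low one. Without that array Tomm70a differed by 0.13 and Tomm20 by 0.16. Over all probe sets, differences between wild-type replicate 1 and either knock-in array had a standard deviation of 0.31. For wild-type replicate 2 it was 0.25 with knock-in replicate 1 and 0.23 with knock-in replicate 2. Between the 2 wild-type arrays it was 0.24, and between the 2 knock-in arrays 0.21. Of 17 regulators of mitochondrial biogenesis 12 were above 0, with a median of 0.11. The receptor gene Esrrb had 8.87 and 8.93 in knock-in hearts, against 8.53 and 8.53 in wild-type hearts, a difference of 0.37 (limma adjusted p = 0.458). Tfam, which packages and transcribes mitochondrial DNA, had 9.41 and 9.42 in knock-in hearts, against 8.996 and 9.292 in wild-type hearts, a difference of 0.27 that was 0.12 without wild-type replicate 1. The coactivator genes Ppargc1a and Ppargc1b differed by −0.21 and −0.25, and Ppargc1b ran from −0.38 to −0.12 with 1 array left out. The medians of the 7 lists lay between 0.07 and 0.23, on both sides of the members' median of 0.14. For comparison, 46.9% of all genes were above 0, with a median of −0.01. Of the genes at least as bright as Mief1, 69.6% were above 0, with a median of 0.06. The lists are given as deposited only, and quantile normalization and cyclic loess each took those bright genes to a median of −0.01.

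**Figure D4:**
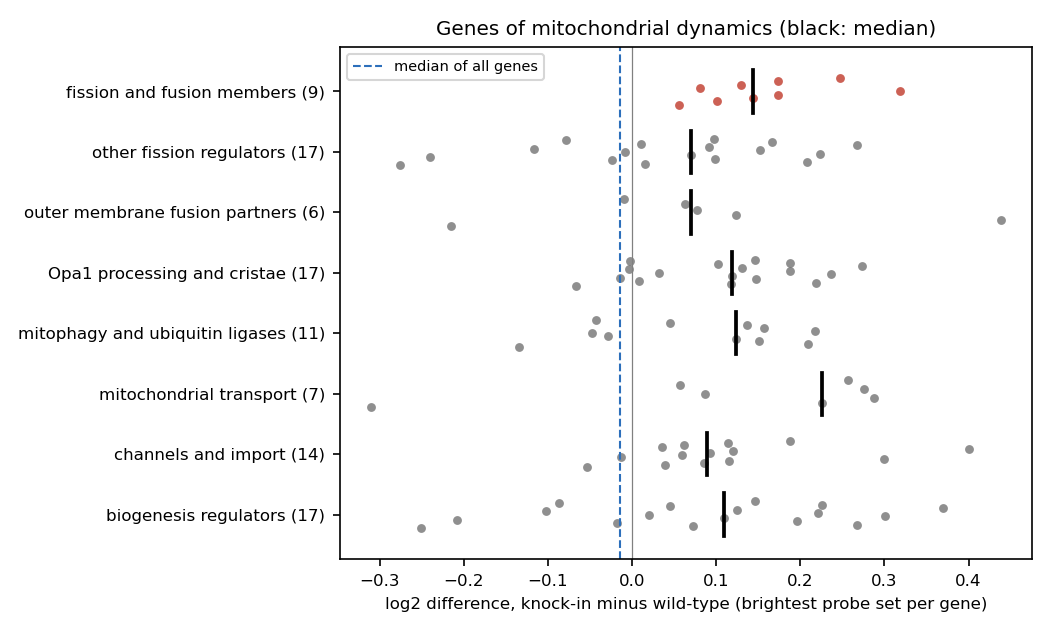
Log2 difference, knock-in minus wild-type, of each gene by its brightest probe set (points) for the 9 members in red and for 7 lists of other genes of mitochondrial dynamics, content and turnover in grey, with each list's median as a black bar and the median of all genes as a dashed line. As deposited, list medians run from 0.07 to 0.23, with the members at 0.14 and all genes at least as bright as Mief1 at 0.06. As a scaling limit, the members Oma1 and Mtfr1 turned below 0 after quantile normalization, and Oma1 after cyclic loess.

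Further facts of the arrays are as follows. Gsk3a, the targeted gene, had 10.62 and 10.80 in knock-in hearts, against 11.16 and 11.08 in wild-type hearts, a difference of −0.42 that did not pass the test (limma adjusted p = 0.458), and an amino acid substitution need not change a transcript's level. Cardiomyocyte markers were bright in both genotypes, with 12 of 12 measured and linear RMA values summing to 238650 and 226000 on the knock-in arrays, against 222700 and 226720 on the wild-type arrays. Hepatocyte markers were higher in knock-in hearts for 20 of 20 measured genes, by 0.12 to 3.71, and none of them passed the test. Their summed linear values were 9129 and 3585 on the knock-in arrays, against 1742 and 1189 on the wild-type arrays. The 9 members summed to 21710 and 22747 on the knock-in arrays, against 19842 and 19683 on the wild-type arrays. Such sums weigh the brightest genes most. By brightest probe set Mff (11.74 and 11.72) and Mtfr1 (9.37 and 9.21) were higher on knock-in replicate 1 than on replicate 2, and the other members lower. The members' median difference was 0.18 without knock-in replicate 1 and 0.12 without knock-in replicate 2. The part of hepatocyte signal in the members' values was not tested. Fibroblast markers were above 0 for 10 of 10 genes, with sums of 26201 and 29003 on the knock-in arrays, against 24859 and 24352 on the wild-type arrays, and endothelial markers for 9 of 10, and the part of these cell types in the members' values was not tested. In whole heart RNA, a change in the number of cells of a type and a change in RNA per cell cannot be told apart.

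**Figure D5:**
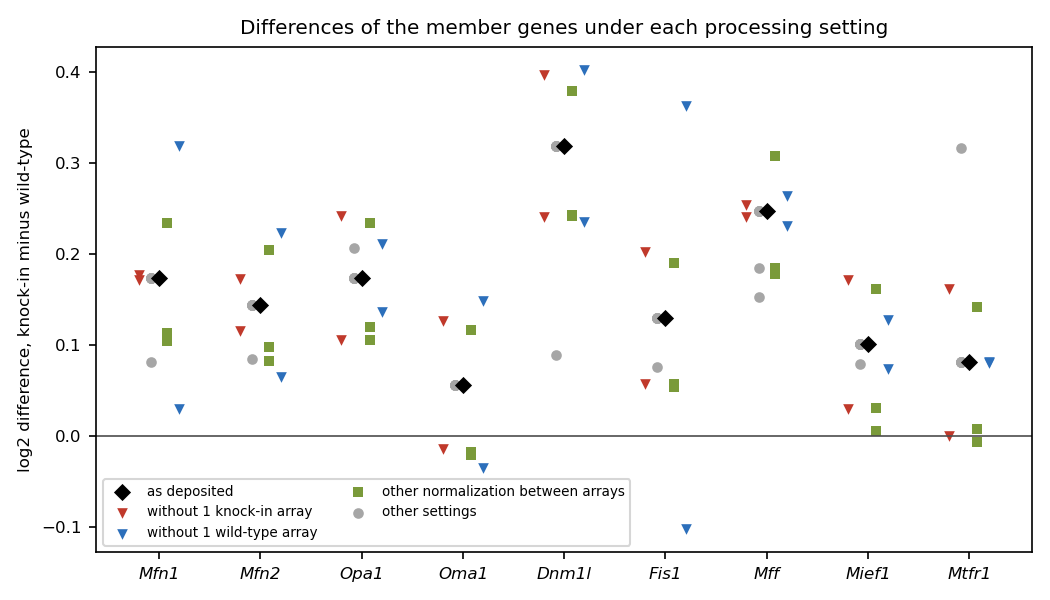
Log2 difference, knock-in minus wild-type, of the 9 member genes by brightest probe set as deposited (black diamonds), with 1 knock-in or 1 wild-type array left out (red and blue triangles), with other normalization between arrays (green squares) and with the remaining settings (grey circles). Dnm1l, Mff, Opa1, Mfn1, Mfn2 and Mief1 stay above 0 in every setting drawn, while Oma1 falls below 0 in 4, and Fis1 and Mtfr1 in 1 each.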

How the data were processed

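Heart RNA of 2 genotypes was measured on 4 single-colour Affymetrix arrays with biotin-labelled cRNA, per the labels' protocols. The deposited values are log2 RMA summaries, 1 per probe set and array, made by the authors, per the submitters' processing notes, with RMA in Expression Console, Affymetrix's program. RMA corrects background and normalizes arrays together, which is meant to take out shifts common to most genes. Some shift remained in the deposited values, with array medians from 6.14 on knock-in replicate 2 to 6.23 on wild-type replicate 1. For this comparison the wild-type scans were normalized with the knock-in scans alone, per the labels. Neither a program version nor a filter or scan batch is stated in the labels.

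Of 45101 probe sets, the 64 controls were set aside. In the array annotation 34945 probe sets had 1 symbol, 932 had several and 9160 had none. Probe sets with several symbols named no gene. By gene ID 18032 of 18193 genes were matched to a RefSeq table of GRCm38.p6, used for names. Of 207 list entries 190 were measured. The knock-in minus wild-type difference was estimated in R 4.3.3 by limma 3.58.1, using lmFit and eBayes without covariates (2 residual and 4.54 prior degrees of freedom), with Benjamini-Hochberg adjustment over 45037 probe sets and a threshold of 0.05. Precision is limited by the number of arrays, with a median standard error of 0.12 for a log2 difference, and an exact permutation test of 2 against 2 arrays cannot give a two-sided p below 0.333. The fit was also run on simulated data, and the outcome is not given here. Sequences are from RefSeq, and figures were drawn with Python 3.11.15 and matplotlib 3.10.9.

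The members and lists were chosen with earlier results of these data known. Named were all member probe sets, Gsk3a, the 3 genes of smallest p in each mitochondrial list with any further gene at an unadjusted p under 0.05, Ppargc1a, Pink1, and the 5 genes most like the member of smallest p. The transcription factor genes Gabpa, Nrf1, Esrra and Esrrg, and the list genes Bnip3, Fkbp8 and Ppargc1b, were added after their values were seen. The alternatives changed how arrays are normalized and weighted, the eBayes prior, which probe sets enter (dim or cross-hybridising ones left out), the summary per gene and the threshold, added the replicate number as a block, or left out each array.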

Additional observations from a re-analysis of the deposited data

How the results depend on the processing

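No member probe set passed the test under any alternative that kept all 4 arrays. The smallest adjusted p-values (limma) ran from 0.385 with arrays shifted to 1 median to 0.541 after quantile normalization. Alternatives that changed only the eBayes prior, the array weights or the block left every member gene difference unchanged. So did leaving out probe sets averaging below 7, and none of these could turn a direction. Counting them, 120 of 126 recomputed differences of single member genes kept their direction. The exceptions were Oma1 at −0.017 after quantile normalization and −0.021 after cyclic loess, Mtfr1 at −0.0070 after quantile normalization, and, with 1 array left out, Oma1, which ran from −0.035 to 0.15, and Fis1, which ran from −0.10 to 0.36. The median of the members, 0.14 as deposited, was 0.20 with arrays shifted to 1 median, 0.098 after quantile normalization, 0.083 after cyclic loess and 0.0845 when the probe sets of a gene were averaged, and it ran from 0.12 to 0.18 with 1 array left out. Shifting to 1 median also moved the median of all genes, from −0.01 to 0.05. Member probe sets higher at an unadjusted p under 0.05, 2 as deposited, numbered 1 after quantile normalization and after cyclic loess, 0 of 9 genes when probe sets were averaged, and 0 to 3 with 1 array left out, with 1 lower without knock-in replicate 1 and 0 lower under the other alternatives. Those higher at that p numbered 3 with arrays shifted to 1 median and with an eBayes prior that follows the mean level. Among the 18 member probe sets averaging at least 7 they also numbered 3. The count of all probe sets past the test, 3 as deposited, was 1 when those averaging below 7 were left out, where fewer were tested. It was 11 with arrays shifted to 1 median, 7 genes after averaging per gene and 5 at an adjusted p under 0.1. It ran from 0 to 2 with 1 array left out, and was 0 without knock-in replicate 1. With the replicate number as a block it was 4, and the smallest member adjusted p was 0.447. The shared numbers are not known to pair arrays, since the deviations of same-numbered arrays correlated at 0.085 over probe sets. Dim probe sets, 5 of the 23, limit what can be read for 1 of Mfn2, 2 of Dnm1l and 2 of Mff. Where the cause of a change is not named here, the cause was not tested.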

Other observations

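The remaining cell type markers, which belong to no comparison of the members, were as follows. Lymphocyte markers were below 0 for 7 of 7 genes, with a median of −0.20. Their linear values summed to 566 and 538 on the knock-in arrays, against 705 and 608 on the wild-type arrays. They were faint, with means from 4.37 for Cd3g to 7.68 for Cd3e, and 3 of the 7 were dim. Over all genes 46.9% were above 0, against 65.0% of those with a mean of at least 7, so fainter genes fell below 0 more often. Smooth muscle and pericyte markers were above 0 for 5 of 8 genes (median 0.07), and myeloid markers for 6 of 8 (median 0.11). Erythroid markers were above 0 for 2 of 3, adipocyte markers for 3 of 6 and skeletal muscle markers for 3 of 8. None of these genes passed the test over all probe sets. The adipocyte gene Adipoq, singled out after its values were seen, had 5.13 and 6.89 in knock-in hearts, against 5.23 and 5.30 in wild-type hearts. Its probe set was dim, and its difference of 0.74 was −0.14 without knock-in replicate 2.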
